A study of Mus musculus with 15 samples.

Results

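The genes described here are 40 mouse ribosome biogenesis factors, the nucleolar proteins and RNA polymerase I components that transcribe, modify, cut and assemble ribosomes. They were taken as a fixed list of gene names, and each name was matched to 1 Ensembl gene, so that all 40 of the 43629 genes in the count table were found. Ribosomal RNA (rRNA) is transcribed by RNA polymerase I in the nucleolus, its bases and riboses are modified under the guidance of small nucleolar RNAs (snoRNAs), and it is then cut and folded together with ribosomal proteins into the small (40S) and large (60S) subunits. The assembly factors leave the particle before it joins translation. In the intestine this work is greatest in the dividing cells of the crypt, and MYC, a target of Wnt signalling, is the textbook activator of these genes.

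The study sequenced RNA from organoids grown from mouse small intestine, to ask how a chromosome inversion that fuses Ptprk to the Wnt agonist gene Rspo3 compares with loss of Apc, the brake on Wnt signalling. The 3 genotypes, on a C57B6/129 background, were compared, with 5 wildtype (WT), 4 Apc and 4 P-Rspo3 libraries. The WT libraries 1, 2, 5 and 6 were Apc flox/flox organoids with the gene intact, and the last, called naive, came from organoids carrying the doxycycline-inducible Cas9 system that had not been given doxycycline. The Apc libraries 1, 2, 5 and 6 were Apc delta/delta organoids with the same line numbers, and the P-Rspo3 libraries 15d, 4d, M and F were polyclonal cultures carrying the Ptprk-Rspo3 inversion. The study induced this inversion with doxycycline in organoids carrying the Cas9 system. WT organoids were grown in ENR, a medium with EGF, Noggin and RSPO1, and Apc and P-Rspo3 organoids in EN, which lacks RSPO1. Genotype and medium therefore cannot be told apart in a comparison with WT, whereas Apc and P-Rspo3 shared a medium. In the P-Rspo3 comparisons doxycycline and line of origin also cannot be told apart from genotype, though WT naive carried the Cas9 system. The labels do not say that the libraries of a group came from separate animals, and the p-values measure the spread between these cultures. The library titled LIPO, whose genotype field is WT and whose title names no genotype, and the library titled NAIVE_F, whose genotype field is P-Rspo3, were kept out of the groups and used in an alternative.

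Between 28902729 and 35528495 reads per library were assigned to genes in the grouped libraries, 27466904 in LIPO and 28234329 in NAIVE_F. Values given below for any or every library cover the grouped libraries. The labels were first checked on the altered genes. Rspo3 had 0 to 1 read in the WT libraries, 7 to 57 in Apc and 539 to 1079 in P-Rspo3. LIPO had 0 and NAIVE_F 729, as their genotype fields would place them. Ptprk, the other gene of the fusion, had 2958 to 4996 reads in WT and 4795 to 6269 in Apc. In P-Rspo3 15d, 4d, M and F it had 2012, 3107, 1939 and 1517 reads. Library 4d thus lay within the WT range for Ptprk, and it also had the fewest Rspo3 reads of its group (539). LIPO had 2942 Ptprk reads and NAIVE_F 2319. The Apc gene itself was higher in the Apc libraries (9265 to 10953 reads) than in WT (4046 to 6810 reads), and since a count over the whole gene still takes reads from the exons that remain, it does not check the deletion. All 8 epithelial markers examined (among them Epcam and Krt8) were measured, with a summed level of 2178 ± 179 FPKM in WT (SD, n = 5), 2216 ± 214 in Apc (n = 4) and 2283 ± 201 in P-Rspo3 (n = 4). Of these, 2 rose and 5 fell in Apc against WT, with Krt18 at 1.11 ± 0.12 and Cdx1 at -4.18 ± 0.18 on the log2 scale. Markers of fibroblasts summed to at most 0.311 FPKM in any library, with 3 to 6 of 6 at 0, and those of leukocytes to at most 2.38 FPKM, with 1 to 3 of 5 at 0. Endothelial markers summed to at most 2.07 FPKM, with 1 to 3 of 4 at 0. Low as they were, some of these moved with the Apc genotype. The endothelial cadherin gene Cdh5 was at 0 in all WT and P-Rspo3 libraries and at 5.58, 8.09, 7.49 and 9.06 CPM (TMM-scaled) in Apc, while Pecam1 fell by 2.95 ± 0.37 on the log2 scale against WT, and Pdgfra of the fibroblast list rose by 4.504 ± 0.44. Their part in the results below was not tested.

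All 40 factors were expressed in every library, at levels above those of a typical gene. On the FPKM scale, which accounts for gene length, the median over the 40 factors of their mean over the 13 libraries was 26.0 FPKM, beside 6.14 FPKM for the median of the 17244 genes tested. Npm1, which encodes the nucleolar chaperone nucleophosmin, stood highest at 765 ± 235 FPKM (SD over the 13 libraries), followed by Ncl, encoding nucleolin, at 263 ± 68.7 FPKM. Together they held between 39.3% and 43.5% of the summed FPKM of the 40 factors in each library. Next in level came the snoRNA-bound enzymes and their partners, Nop56, Nop58, Gar1, Nhp2, Dkc1 and Fbl, whose means ran from 196 down to 62.9 FPKM. The lowest were Noc3l, a 60S assembly factor, at 7.54 ± 1.497 FPKM, and Rrp12, which acts on late small-subunit precursors, at 7.31 ± 1.26 FPKM, a difference within their SD.

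Taken as a share of all gene counts, the 40 factors made up 0.483%, 0.438%, 0.376%, 0.545% and 0.498% of WT libraries 1, 2, 5, 6 and naive. The Apc libraries 1, 2, 5 and 6 gave 0.854%, 0.741%, 0.769% and 0.717%. The P-Rspo3 libraries 15d, 4d, M and F gave 0.523%, 0.508%, 0.578% and 0.420%. Every Apc library thus lay above every WT and every P-Rspo3 library, and P-Rspo3 overlapped WT. In summed FPKM the means were 2008 ± 260 in WT (SD, n = 5), 3370 ± 246 in Apc (n = 4) and 2148 ± 302 in P-Rspo3 (n = 4).

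**Figure D1:**
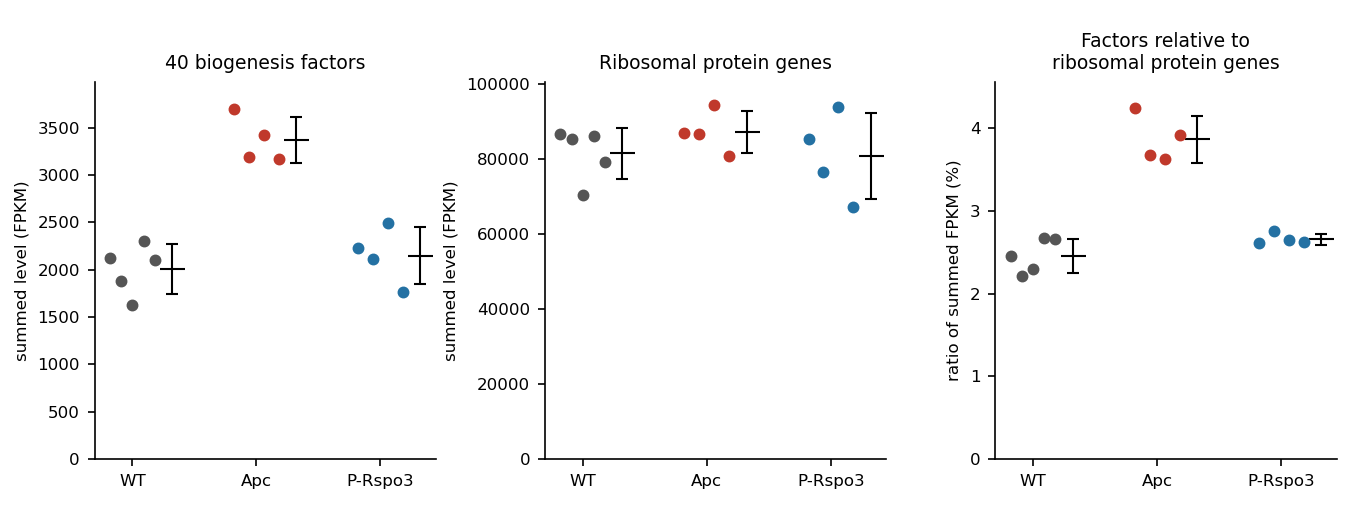
Summed level of the 40 biogenesis factors (left, FPKM), of the cytosolic ribosomal protein genes (middle, FPKM) and their ratio (right, %), by genotype, with each point a library and the bar the mean ± SD. The 4 Apc libraries stand apart from WT and P-Rspo3 in the left and right panels, while the 3 genotypes overlap in the middle panel.

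The first comparison asked which factors differed between Apc and WT organoids. In Apc 30 of the 40 rose at an adjusted p under 0.05 (edgeR quasi-likelihood test, Benjamini-Hochberg over 16749 genes) and 0 fell, beside 30.0% of all genes tested that rose and 29.0% that fell. The rises were small. The median log2 fold change of the 40 factors was 0.42, a 1.34-fold difference, beside 0.00 over all genes tested, and 39 of 40 were above 0, as were 8378 of the 16749 genes tested. None passed the study's further threshold of a 2-fold change, which 12.2% of genes tested passed upward. In 28 of the 40 every Apc library lay above every WT library, as in 27.4% of genes tested. These values rest on TMM scaling, which sets the bulk of genes equal between groups. On total counts the median of all genes itself moved to 0.29, and 7546 of the 16749 genes rose and 3296 fell in place of 5028 and 4864. At that scaling 39 of the 40 factors rose, with a median of 0.71. Past 2-fold upward were 4 of the 40, beside 2821 of the 16749 genes.

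**Figure D2:**
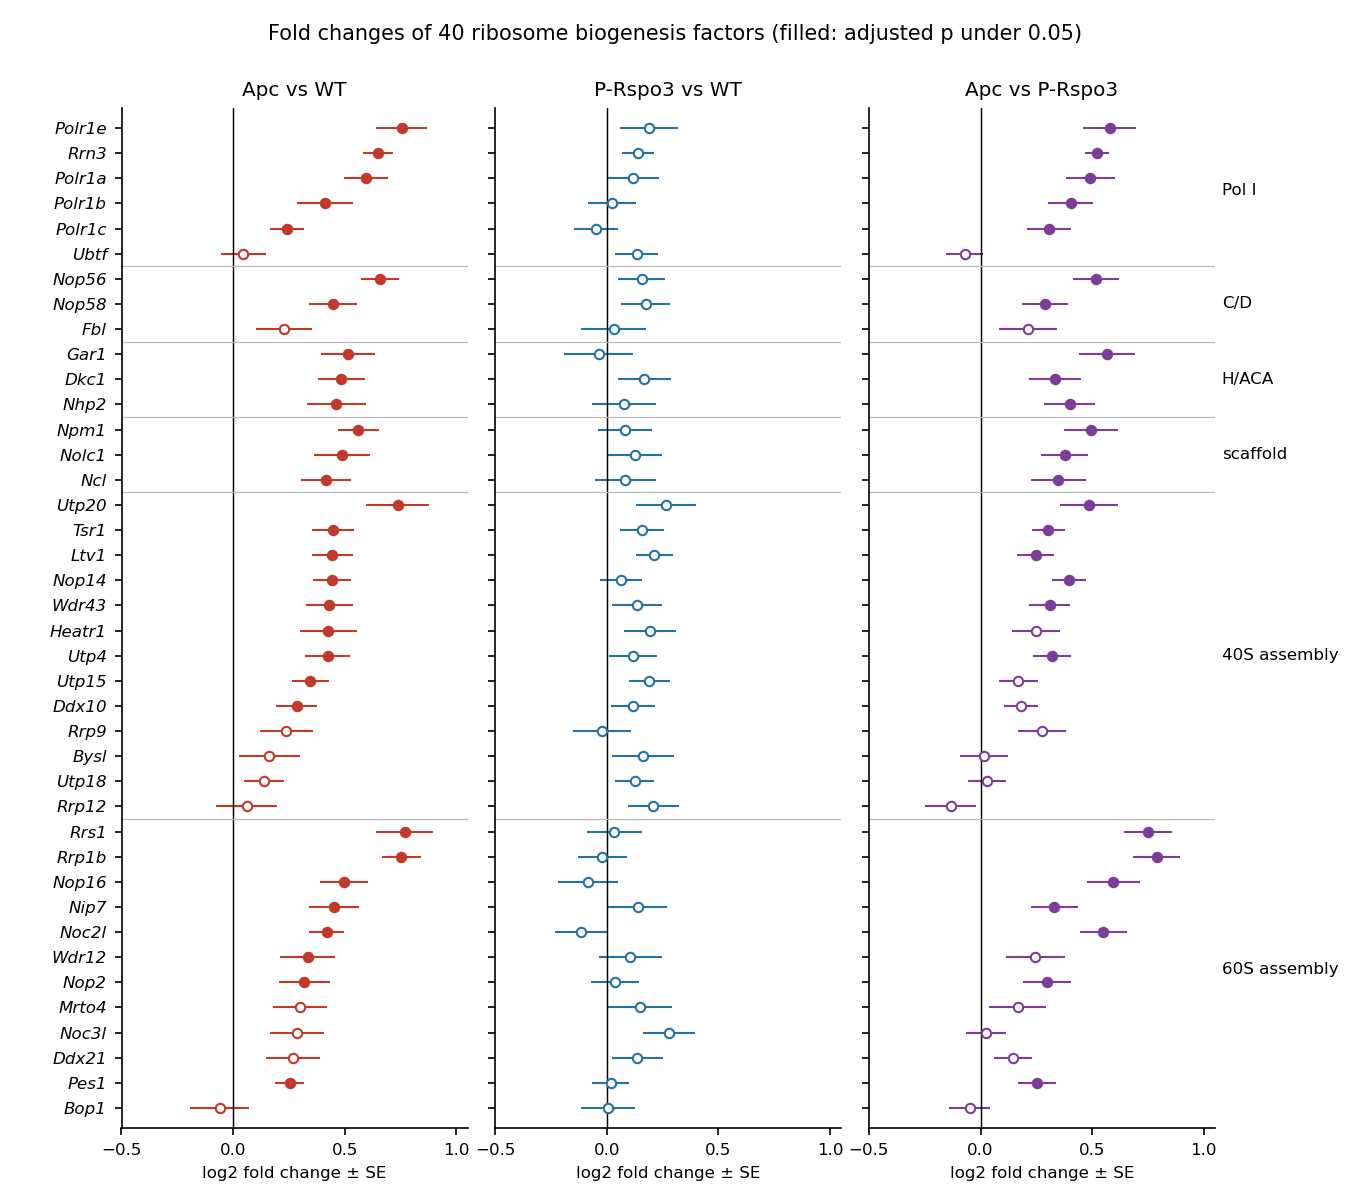
Log2 fold change ± SE (horizontal axis) of each of the 40 factors in the 3 comparisons, grouped by role, with filled points for an adjusted p under 0.05 in the edgeR quasi-likelihood test. Points of the Apc comparisons lie mostly to the right of 0, with 30 filled against WT and 26 against P-Rspo3, and no point is filled in P-Rspo3 vs WT.

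The RNA polymerase I machinery, which makes the rRNA precursor, had 5 of 6 members higher in Apc than in WT, with a median log2 fold change of 0.50. Polr1e encodes a polymerase I subunit (Ensembl ENSMUSG00000028318, GRCm38 chr4:45018583-45036565, plus strand). On the TMM-scaled library-size-normalised counts (CPM) used for all single-gene values below, Polr1e measured 21.2, 15.7, 16.1, 19.0 and 20.6 CPM in WT libraries 1, 2, 5, 6 and naive. It measured 36.3, 28.4, 32.5 and 29.7 CPM in Apc libraries 1, 2, 5 and 6, and 21.2, 19.7, 25.2 and 18.4 CPM in P-Rspo3 15d, 4d, M and F. All Apc values were above all others, and the log2 fold change against WT was 0.75 ± 0.12 (SE; adjusted p = 0.000207). Rrn3, the initiation factor that brings the polymerase to the rRNA gene promoter, rose by 0.65 ± 0.07 (adjusted p = 1.34e-05) and was the most even of the 40 within the mutants, with a coefficient of variation of 3.25% in Apc and 2.29% in P-Rspo3. The catalytic subunit gene Polr1a rose by 0.60 ± 0.10 and Polr1b, for the other large subunit, by 0.41 ± 0.12.

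Polr1c, whose product is shared with RNA polymerase III, had the highest FPKM of this group. It measured 57.9, 55.2, 47.5, 55.9 and 49.4 CPM in WT, 64.6, 62.6, 69.1 and 58.9 CPM in Apc, and 53.3, 48.9, 59.6 and 43.9 CPM in P-Rspo3, in the same library order. The Apc values lay just above the WT ones (log2 fold change 0.24 ± 0.08, edgeR adjusted p = 0.0171). With the line number as a block and without WT naive, the edgeR adjusted p was 0.0971. Ubtf, which binds along the rRNA genes and keeps them open to the polymerase, was the exception. It measured 174, 156, 143, 189 and 192 CPM in WT, 195, 184, 183 and 153 CPM in Apc, and 187, 188, 197 and 178 CPM in P-Rspo3, so that the 3 genotypes overlapped (log2 fold change 0.05 ± 0.10 against WT, adjusted p = 0.732).

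The particles that modify rRNA are built on snoRNAs. In the box C/D particle, which methylates ribose, 2 of 3 core genes rose. Nop56 measured 145, 129.5, 122, 150.4 and 153 CPM in WT, 251, 216, 216 and 211 CPM in Apc, and 169, 161, 166 and 127 CPM in P-Rspo3. Every Apc library exceeded every other (log2 fold change against WT 0.66 ± 0.08, adjusted p = 5.69e-05), and Nop58, its partner in the particle, rose by 0.45 ± 0.11. Fbl, the methyltransferase itself, gave 0.23 ± 0.13 (adjusted p = 0.147). In the box H/ACA particle, which makes pseudouridine, all 3 rose, with Gar1 at 0.51 ± 0.12, the pseudouridine synthase gene Dkc1 at 0.48 ± 0.11 and Nhp2 at 0.46 ± 0.13. Gar1 had the highest FPKM of these and measured 38.9, 28.7, 25.7, 35.9 and 37.5 CPM in WT, 52.1, 47.5, 48.6 and 44.7 CPM in Apc, and 29.2, 30.3, 41.9 and 28.5 CPM in P-Rspo3. The Apc libraries lay above all others, and P-Rspo3 M came closest to them.

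All 3 chaperone and scaffold genes rose. Npm1 (ENSMUSG00000057113, chr11:33152287-33163206, minus strand) measured 899.8, 864, 734, 962 and 898 CPM in WT and 1407, 1254, 1370 and 1182 CPM in Apc. In P-Rspo3 it measured 895, 902, 1122 and 768 CPM. The Apc libraries were all above the rest, and the log2 fold change against WT was 0.56 ± 0.09 (adjusted p = 0.000340). Ncl measured 1119, 1048, 926, 1316 and 1253 CPM in WT, 1700, 1455, 1565 and 1403 CPM in Apc, and 1135, 1179, 1473 and 1005 CPM in P-Rspo3. Here P-Rspo3 M overlapped the Apc range, and the log2 fold change against WT was 0.42 ± 0.11 (adjusted p = 0.00747). Nolc1, which carries snoRNA particles in the nucleolus, rose by 0.49 ± 0.12.

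In the small subunit processome and 40S assembly group 9 of 13 rose, with a median of 0.42. Utp20, a large scaffold of the pre-40S particle, rose most, by 0.74 ± 0.14 (adjusted p = 0.00102). Tsr1 and Ltv1, which act on late 40S precursors, rose by 0.45 ± 0.09 and 0.44 ± 0.09, and the processome genes Nop14, Wdr43, Heatr1, Utp4 and Utp15 by 0.44, 0.43, 0.43, 0.42 and 0.35. The helicase gene Ddx10 rose by 0.28 ± 0.09. Wdr43 had the highest FPKM of the group and measured 126, 109.6, 97.4, 139.7 and 128 CPM in WT, 186, 159, 165 and 148 CPM in Apc, and 136, 134, 143 and 115 CPM in P-Rspo3. Its Apc libraries lay above all the others.

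Rrp9, Bysl, Utp18 and Rrp12 of the same group did not pass the test, with log2 fold changes of 0.24, 0.16, 0.14 and 0.06. Rrp12 (ENSMUSG00000035049, chr19:41862851-41896173, minus strand) measured 49.7, 39.5, 37.7, 51.2 and 53.1 CPM in WT and 60.8, 46.6, 47.0 and 41.2 CPM in Apc. In P-Rspo3 it measured 52.6, 57.9, 52.96 and 50.2 CPM. The 4 P-Rspo3 values were close together and above 3 of the 4 Apc values. Against P-Rspo3 its log2 fold change in Apc was -0.13 ± 0.11 (adjusted p = 0.354), and without Apc library 1 it was -0.25 (adjusted p = 0.0287). On total counts its sign turned, to 0.12 (edgeR adjusted p = 0.399).

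Among the 12 factors of 60S assembly 8 rose, with a median of 0.33, and the group held the extremes of the whole list. Rrs1, which helps to bring the small 5S rRNA particle into the large subunit, had the largest rise of the 40 (ENSMUSG00000061024, chr1:9545408-9547455, plus strand). It measured 44.2, 34.9, 30.8, 45.1 and 42.3 CPM in WT, 79.0, 65.0, 71.5 and 57.3 CPM in Apc, and 41.7, 40.05, 44.1 and 35.6 CPM in P-Rspo3. The Apc libraries were all above the others (log2 fold change against WT 0.77 ± 0.13, adjusted p = 0.000376). Rrp1b, a nucleolar protein of 60S processing (ENSMUSG00000058392, chr17:32036100-32062865, plus strand), measured 52.96, 51.0, 45.0, 59.8 and 56.1 CPM in WT and 102, 89.3, 83.1 and 87.9 CPM in Apc. In P-Rspo3 it measured 53.5, 52.6, 59.9 and 42.8 CPM. The Apc libraries again lay above all others, with a log2 fold change against WT of 0.75 ± 0.09 (adjusted p = 3.25e-05).

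Nop16, Nip7, Noc2l and Nop2 rose by 0.50, 0.45, 0.42 and 0.32. Noc2l acts early in 60S assembly, Nip7 binds the precursor RNA, and Nop2 methylates rRNA cytosine. Of the 40 factors 12 share exon bases with another protein-coding gene, and since the strand setting of the counting is not given, reads there cannot be assigned with certainty. The longest overlaps are those of Tsr1 with Srr (1240 of 3837 exonic bases), Noc2l with Samd11 (598 of 2867) and Bysl with Ccnd3 (361 of 3854). Pes1, Bop1 and Wdr12 encode the subunits of 1 complex that is needed to cut the large-subunit precursor. Pes1 measured 122, 109, 106, 119 and 117 CPM in WT, 149, 132, 143 and 131 CPM in Apc, and 110.4, 110.1, 135 and 108 CPM in P-Rspo3. No WT library reached the Apc range, and Pes1 rose by 0.25 ± 0.06 (adjusted p = 0.00578), as did Wdr12 by 0.33 ± 0.12 (adjusted p = 0.0369). Bop1 (ENSMUSG00000022557, chr15:76452989-76477277, minus strand) measured 118, 81.2, 83.98, 114 and 112 CPM in WT, 117, 97.2, 96.3 and 86.0 CPM in Apc, and 94.97, 102, 104 and 108 CPM in P-Rspo3. Its genotypes overlapped, with a log2 fold change of -0.06 ± 0.13 on TMM scaling and 0.23 on total counts, neither past the test. The difference between Bop1 and its partners was not tested. Mrto4, which holds the place of a stalk protein on the pre-60S particle, Noc3l and the helicase gene Ddx21 gave 0.30, 0.29 and 0.27 without passing the test. With the line number as a block in edgeR, in a fit that also left out WT naive, Mrto4 (adjusted p = 0.0230) and Noc3l (adjusted p = 0.0492) did pass. So did Rrp9 of the 40S group (edgeR adjusted p = 0.0489).

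**Figure D3:**
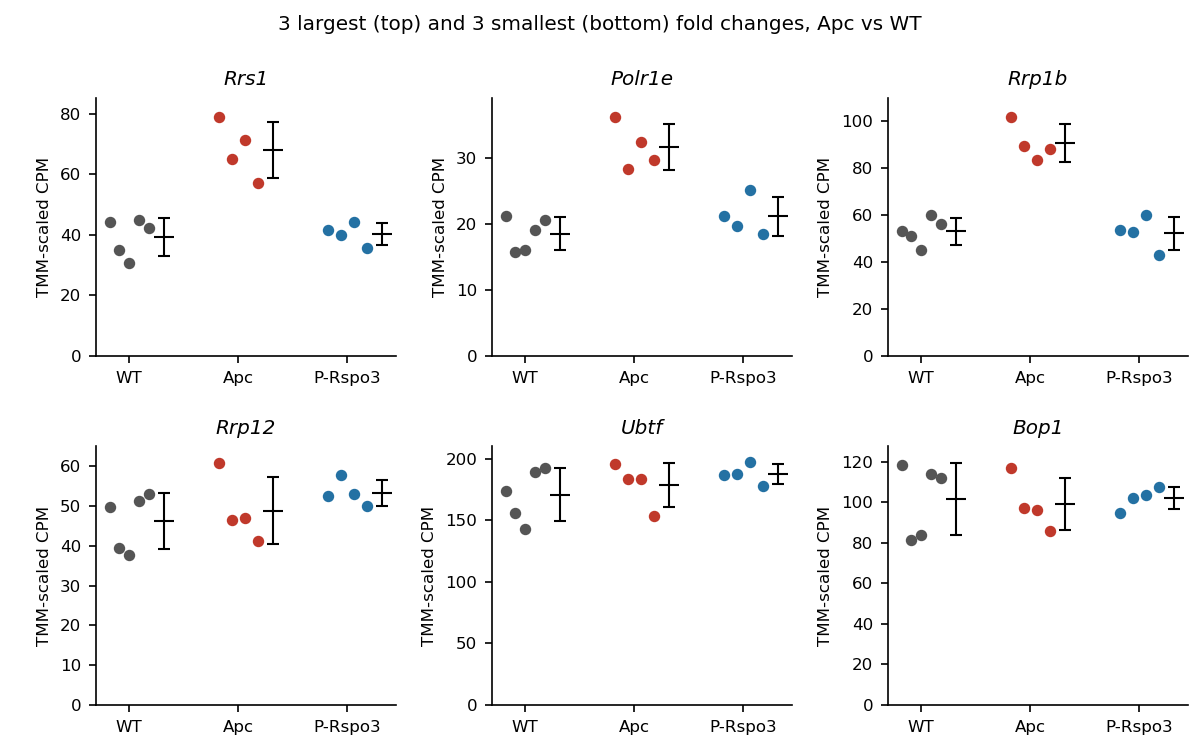
TMM-scaled CPM of the 3 factors with the largest log2 fold change in Apc vs WT (top) and the 3 with the smallest (bottom), with each point a library, the bar the mean ± SD and the axis starting at 0. Apc libraries are separate from both other genotypes for Rrs1, Polr1e and Rrp1b and overlap them for Rrp12, Ubtf and Bop1.

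The second comparison asked the same of P-Rspo3 and WT organoids. It shares the WT libraries with the first. No factor passed an adjusted p of 0.05 in the edgeR quasi-likelihood test in either direction, beside 0.00625% of the 15992 genes tested, or 1 gene, that rose and 0 that fell. At an unadjusted p under 0.05 edgeR named 2 factors, both higher, and DESeq2 likewise 2, beside 6.47% of genes tested that were higher and 7.03% that were lower at that unadjusted p in edgeR. The median log2 fold change was 0.12 beside 0.00 over all genes tested, and it was above 0 for 34 of 40 factors, as for 8135 of the 15992 genes tested. The median was 0.06 without WT library 5, 0.07 without P-Rspo3 M and 0.17 without WT library 6. In 0 of the 40 did P-Rspo3 lie wholly above WT, as 2.54% of genes tested did.

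The 2 smallest p-values belonged to Ltv1 and Noc3l. Ltv1 measured 57.8, 59.0, 50.9, 63.2 and 67.0 CPM in WT, 89.5, 79.8, 88.3 and 71.2 CPM in Apc, and 73.5, 66.6, 67.2 and 68.8 CPM in P-Rspo3. The P-Rspo3 values sat at the top of the WT range and overlapped it only through WT naive, with a log2 fold change of 0.21 ± 0.08 (unadjusted p = 0.0276, adjusted p = 0.300). Noc3l measured 35.96, 29.3, 27.8, 38.9 and 39.4 CPM in WT, 48.4, 41.7, 42.5 and 37.2 CPM in Apc, and 38.2, 42.5, 44.6 and 40.9 CPM in P-Rspo3. It was nearly as high in P-Rspo3 as in Apc (log2 fold change against WT 0.28 ± 0.12, adjusted p = 0.333). At the other end Noc2l gave -0.12 ± 0.12 (adjusted p = 0.700).

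The third comparison set Apc against P-Rspo3, which were grown in the same medium, and shares its libraries with the other 2. Of the 40 factors 26 were higher in Apc (edgeR quasi-likelihood test, Benjamini-Hochberg over 16456 genes) and 0 lower, beside 28.7% and 27.7% of genes tested. The median log2 fold change was 0.31 (0.00 over all genes tested), 0 factors passed 2-fold (13.4% of genes tested did so upward), and in 18 of 40 every Apc library lay above every P-Rspo3 library (27.7% of genes tested). On total counts 37 factors were higher, with a median of 0.56 beside 0.26 over all genes tested. There 6903 of the 16456 genes were higher and 3175 lower, in place of 4719 and 4557. Past 2-fold upward were 2 factors, beside 2793 of the 16456 genes. Rrp1b and Rrs1 led with 0.79 ± 0.11 and 0.75 ± 0.11, beside -0.02 ± 0.11 and 0.03 ± 0.12 for P-Rspo3 against WT. Nop16 followed with 0.60 ± 0.12 (-0.08 ± 0.13 for P-Rspo3 against WT). Heatr1, Utp15, Wdr12 and Ddx10, higher in Apc than in WT, did not pass here, with 0.25, 0.17, 0.24 and 0.18. The count of higher factors went down to 18 when any of Apc library 1, P-Rspo3 4d or P-Rspo3 F was left out.

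Within each genotype the same library was often the highest or lowest for most of the 40 factors. WT library 5 was the lowest WT library for 38 of the 40 factors, beside 20.3% of the 17244 genes tested in any comparison. Apc library 1 was the highest Apc library for 39, beside 30.1% of genes, and P-Rspo3 F the lowest P-Rspo3 library for 33, beside 26.5% of genes. Other lists shared this, since the summed FPKM of the ribosomal protein, DNA replication, mitosis and epithelial marker genes was also lowest in WT 5 and in P-Rspo3 F within their genotypes. The summed TMM-scaled CPM of the 40 factors ran from 4143 in WT 5 to 5645 in WT 6, from 6199 in Apc 6 to 7649 in Apc 1, and from 4664 in P-Rspo3 F to 6122 in P-Rspo3 M. The lowest Apc library therefore exceeded the highest P-Rspo3 library by little. The median coefficient of variation of a factor was 13.7% in WT, 10.2% in Apc and 10.7% in P-Rspo3.

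**Figure D4:**
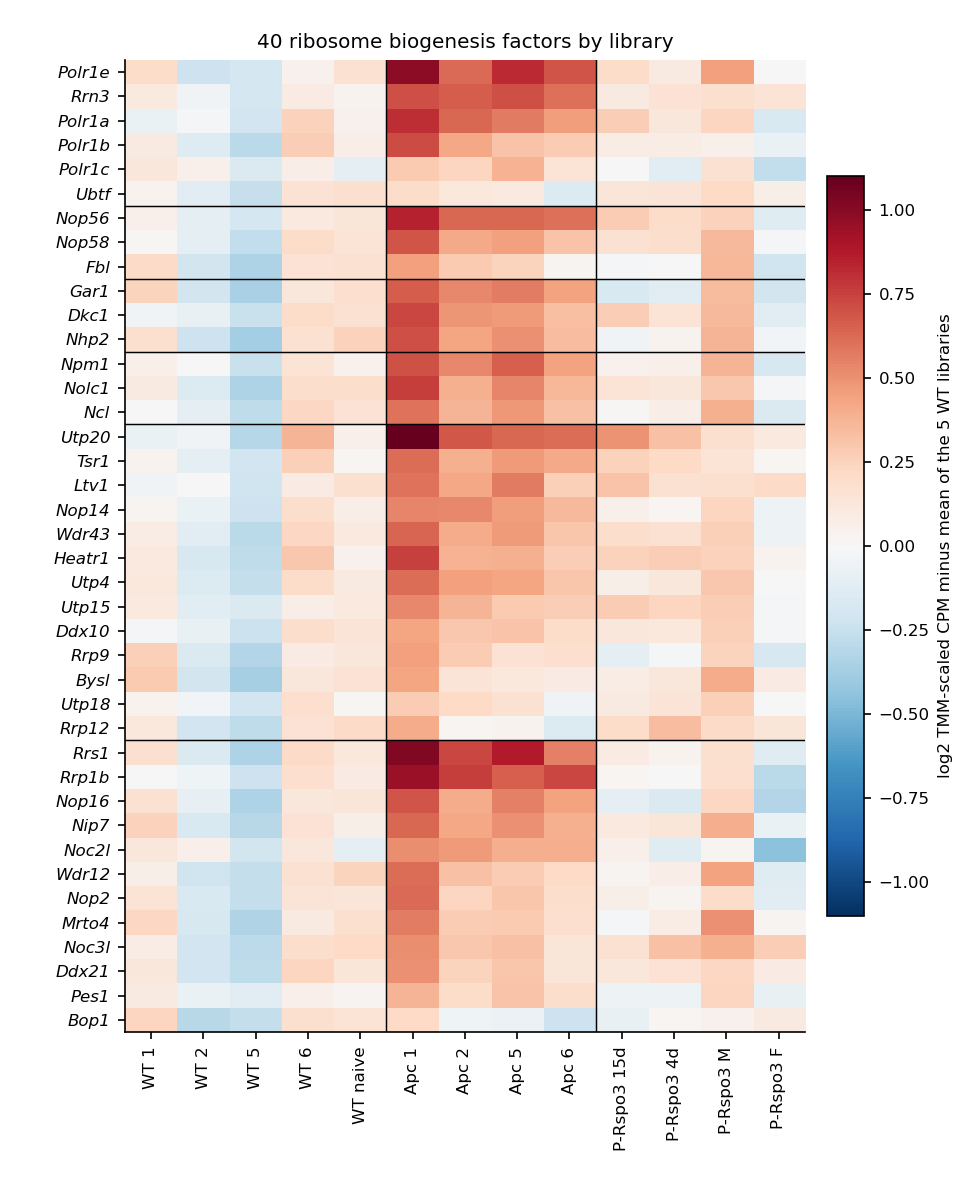
Log2 TMM-scaled CPM of each factor (rows, by role) in each library (columns, by genotype) minus the mean of the 5 WT libraries, from blue (lower) to red (higher). The Apc columns are mostly red, most of all Apc 1, and WT 5 is pale blue for nearly all factors.

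Markers of other intestinal cell types also differed between genotypes and between libraries. The 9 enterocyte markers summed to 5977, 5404, 9454, 3245 and 6254 FPKM in WT libraries 1, 2, 5, 6 and naive, to 74.5, 60.7, 66.7 and 48.2 FPKM in Apc, and to 2270, 3280, 3939 and 5278 FPKM in P-Rspo3 15d, 4d, M and F. In WT the library with the most enterocyte signal, WT 5, had the least of the 40 factors and that with the least, WT 6, had the most. In Apc it was the reverse, since Apc 1 had the most of both and Apc 6 the least of both. In P-Rspo3, F had the most enterocyte signal and the least of the factors, but M, with the most of the factors, had more enterocyte signal than 15d and 4d. All 9 fell in Apc against WT, with a median log2 fold change of -8.82, and Fabp1, the most abundant in every WT library, averaged 1723 CPM in WT and 1.24 CPM in Apc. None was at 0 in any library. Of 6 Paneth cell markers 5 fell and 1 rose (summed 7476 ± 1428 FPKM in WT and 946 ± 427 in Apc), and of 6 goblet cell markers all fell (2107 ± 259 and 326.5 ± 145). Of 6 enteroendocrine markers 4 fell and of 5 tuft cell markers 4 fell. Of 5 crypt stem cell markers 3 rose, among them Lgr5 by 1.45 ± 0.19, and Olfm4 fell by 9.78 ± 0.63 on the log2 scale. In these bulk samples fewer cells of a type and less RNA per cell cannot be told apart, and the part of cell makeup in the factors' rise was not tested.

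The other factors of ribosome biogenesis, 105 genes of a longer list that were tested, had members that rose and members that fell. In Apc against WT 60 rose and 10 fell on TMM scaling, with a median log2 fold change of 0.27, and on total counts 90 rose and 5 fell, with a median of 0.56. The counts and values that follow are on TMM scaling, where 30.0% of all genes tested rose and 29.0% fell. Of 46 other 60S factors 31 rose and 6 fell, of 39 other 40S factors 17 rose and 2 fell, and of 9 other polymerase I genes 4 rose and 2 fell. Of the 11 RNA exosome genes, which trim rRNA ends, 8 rose and 0 fell. Taf1b, of the polymerase I promoter complex, rose by 0.92 ± 0.19, Tex10 and Mak16 of 60S assembly by 0.76 ± 0.07 and 0.69 ± 0.09, and Krr1 of the processome by 0.62 ± 0.08. Those that fell included Eif6, which keeps the 60S subunit from joining too early (-0.62 ± 0.08), and the late 40S kinase gene Riok3 (-0.85 ± 0.10). No gene of these lists passed the test in P-Rspo3 against WT.

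For the genes of the ribosomal proteins themselves the direction depended on the scaling. Of 81 tested in Apc against WT 1 rose and 35 fell on TMM scaling, with a median of -0.18, whereas on total counts 19 rose and 1 fell, with a median of 0.11. The ratio of 2 sums within a library needs no scaling between libraries. The summed FPKM of the 40 factors was 2.45%, 2.21%, 2.30%, 2.67% and 2.66% of that of the ribosomal protein genes in WT, 4.24%, 3.68%, 3.62% and 3.92% in Apc, and 2.61%, 2.75%, 2.65% and 2.62% in P-Rspo3. All Apc libraries were above all others. Fau, a ribosomal protein of the small subunit made as a fusion with a ubiquitin-like protein, had the largest change on TMM scaling (-0.71 ± 0.08). There the list reached up to 0.37 ± 0.22, the value of Rpl24, which did not pass the test (edgeR adjusted p = 0.179). On total counts the list spanned -0.42 to 0.66, so the end that lay further from 0 depended on the scaling. Ribosomal protein genes have many processed copies in the genome, and Rpl24 averaged 0.889 CPM in the counts but 291 FPKM over the same 13 libraries, so values for single ribosomal protein genes are uncertain.

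Genes of cell division were also higher. Of 18 DNA replication genes tested in Apc against WT 16 rose and 0 fell, with a median log2 fold change of 0.80 and Cdc6, Mcm4 and Mcm2 at 1.12, 1.039 and 1.01. Of 15 mitosis genes 14 rose (median 0.55). The difference between these medians and that of the factors was not tested. Relative to the DNA replication genes, the summed FPKM of the 40 factors was lower in Apc (3.17 ± 0.0937 times, SD, n = 4) than in WT (3.56 ± 0.163, n = 5) or P-Rspo3 (3.96 ± 0.150, n = 4), and the Apc range of 3.05 to 3.27 did not reach the lowest WT library at 3.29. Of 16 RNA polymerase II and III subunit genes 6 rose and 2 fell (median 0.15), a share of rises near the 30.0% of all genes tested, and Polr2a had the largest change at 0.94 ± 0.11.

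**Figure D5:**
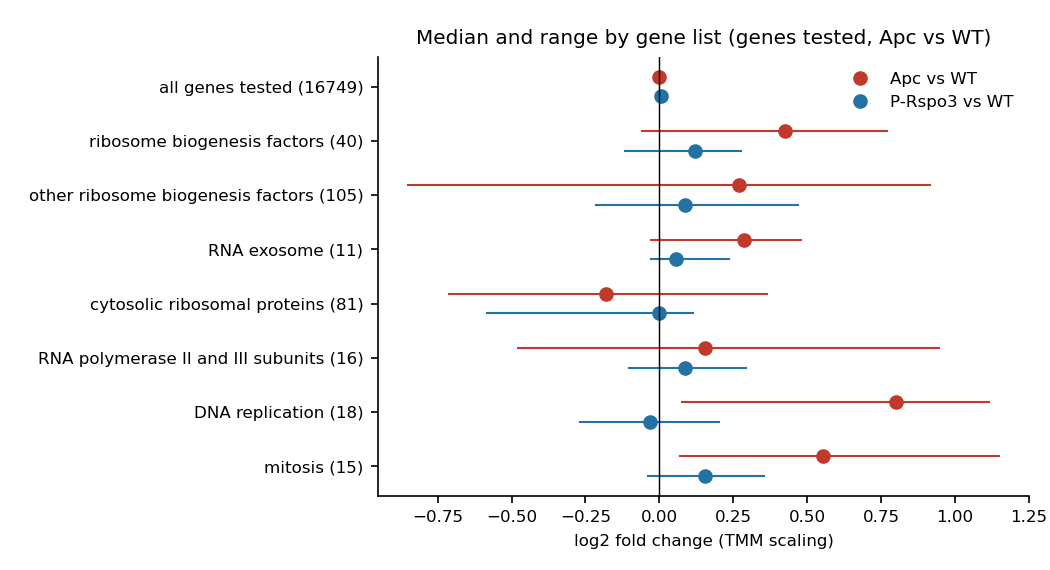
Median (points) and range (lines, not drawn for all genes) of log2 fold change on TMM scaling by gene list, for Apc vs WT in red and P-Rspo3 vs WT in blue, with the number of genes tested in Apc vs WT in brackets. In red the factors stand at 0.42, between the ribosomal proteins at -0.18, a direction that total-count scaling turned, and the DNA replication genes at 0.80, and all blue medians are under 0.2.

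Of the MYC network, Myc rose in Apc by 0.91 ± 0.10 against WT (adjusted p = 2.55e-05), from a mean of 117 to 223 CPM, and stood at 107 CPM in P-Rspo3. Mycl rose by 1.87 ± 0.14, Mycn fell by 6.48 ± 0.26 on the log2 scale and Mxd1, a MYC antagonist, by 1.84 ± 0.30, while Max, their shared partner, gave 0.05 ± 0.09 (adjusted p = 0.670). None of the 12 genes of the network passed in P-Rspo3 against WT. MYC and MAX bind the E-box CACGTG, which reads the same on both strands. Among RefSeq promoter windows (build GRCm38.p6, 250 bases before to 50 after each gene start), 35 of the 40 factors had a window and 9 of these (25.7%) held the motif, beside 8.09% of all 27025 genes with a window. The shares were 16.7% for other biogenesis factors, 9.84% for ribosomal protein genes and 6.25% for DNA replication genes, and 6 of the 9 were 40S assembly genes, of which 12 had a window. The windows are counted by their letters only, and the median GC content was 60.3% for the factors and 52.7% overall.

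The E-boxes that lie upstream of the start, those of Rrn3, Nop2 and Utp18, are shown with the bases around them. In Apc against WT Rrn3 rose by 0.65 and Nop2 by 0.32, and Utp18, at 0.14, did not pass the test. Each is read 5′ to 3′ on the gene's strand with the E-box in capitals.
Rrn3, chr16:13780475-13780498, plus strand: cgccaaggtCACGTGcacacgcct
Rrn3, chr16:13780642-13780665, plus strand: cgctctgctCACGTGggccgcgtc
Nop2, chr6:125131814-125131837, plus strand: tccctggatCACGTGtgttccggt
Utp18, chr11:93885772-93885795, minus strand: agcgccggtCACGTGgcttgcggc
Of the 35 factors with a window, Rrn3 alone had more than 1 E-box in it. Utp20, Tsr1, Ltv1, Wdr43, Utp4 and Pes1 also held the motif, each within the first 50 bases after the start. The 9 factors with it had a median log2 fold change in Apc against WT of 0.43 and the 26 without it 0.42, and Polr1e and Rrp1b, of the 3 with the largest rise, had none in their windows. A match of letters is a description and not a binding site.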

How the data were processed

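The authors aligned reads with STAR to the mouse genome (GRCm38), counted reads per gene with HTSeq 0.6.0 and estimated FPKM with Cufflinks 2.2.1, per the labels and the study's methods. The deposited counts are raw whole numbers for 43629 genes in each library, and the deposited FPKM values (43437 genes) are scaled by the authors for depth and length. The annotation release and strand setting are not given in the sources used here. Ensembl IDs were named from GENCODE vM21, and 361 of 363 listed genes were found (Riok2 and Exosc6 were not analysed here). Each comparison was fitted to counts of its own 2 groups in edgeR 4.0.16 (TMM, glmQLFit and glmQLFTest, R 4.3.3). The fits covered every gene, in or out of the lists, that passed a filter with a minimum of 0.1 FPKM. Benjamini-Hochberg adjustment was used, with calls at 0.05. On simulated data with 100 genes changed at each size, the Apc against WT step recovered 82 at a log2 fold change of 1 and 98 at 2 among 16749 genes with 5 false calls. The P-Rspo3 against WT step recovered 79 and 98 with 12 false calls (15992 genes) and the Apc against P-Rspo3 step 75 and 96 with 4 (16456 genes). The changed genes were drawn only from genes above a minimum mean count, so recovery at low counts was not simulated. Smaller changes, such as those of the factors, were not simulated either. Alternatives used total counts, DESeq2 1.42.0, limma 3.58.1 on log2 FPKM, other filters, a line block and leaving out each library. Every factor is named within its role. Values by library are given for the 3 largest and 3 smallest changes in Apc against WT, the 2 highest and 2 lowest FPKM, the highest FPKM of each role and the 2 smallest p-values in P-Rspo3 against WT. From other lists at most the 3 largest changes, MYC genes and label checks are named. The members and all lists were chosen with earlier results of these data known. Promoter windows came from RefSeq.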

Additional observations from a re-analysis of the deposited data

Results flagged for a closer look

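Of 123 groups of libraries examined, 8 (6.50%) had 1 library far from the rest by Dixon's test, which chance gives in about 1 group in 20. All values are TMM-scaled CPM. In Apc library 1 Nop56 measured 250.9 CPM (the others 211 to 216), Utp20 190.4 CPM (135 to 141) and Bysl 47.46 CPM (37.5 to 38.9). In P-Rspo3 M Gar1 measured 41.88 CPM (28.5 to 30.3), Bysl 46.6 CPM (37.2 to 38.3) and Pes1 134.8 CPM (108 to 110.4). In P-Rspo3 F Utp15 measured 50.77 CPM (60.5 to 62.4) and Heatr1 91.32 CPM (106 to 107). The same 3 libraries stood highest or lowest in their genotype for most of the 40 factors.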

How the results depend on the processing

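Of the 30 factors called in Apc against WT, 26 were called under every alternative, and Ddx10, Nop2, Polr1c and Wdr12 were lost under at least 1. Against P-Rspo3 it was 16 of 26. On total counts, limma on log2(FPKM + 1) and limma on log2(FPKM + 0.1), the median log2 fold change was 0.71, 0.69 and 0.71 against WT and 0.56, 0.57 and 0.58 against P-Rspo3. Factors past 2-fold upward then numbered 4, 3 and 4 against WT, beside 2821, 1418 and 2586 of the 16749 genes tested. Against P-Rspo3 they numbered 2, 0 and 1, beside 2793, 1430 and 2608 of the 16456 genes tested. The all-gene median moved to 0.29, 0.17 and 0.28 against WT and to 0.26, 0.16 and 0.25 against P-Rspo3. Total counts gave 39 and 37 higher factors, beside 7546 and 6903 of all genes tested. Leaving out each library gave 27 (without Apc 1) to 32 higher factors against WT with a median of 0.36 to 0.47, 0 in P-Rspo3 against WT with a median of 0.062 to 0.171, and 18 to 30 in Apc against P-Rspo3 with a median of 0.24 to 0.37, with 0 to 1 lower (Rrp12 without Apc 1).

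Signs that turned were all of factors not called. Bop1 in Apc against WT was 0.23, 0.23 and 0.24 on total counts and the 2 limma fits, and against P-Rspo3 0.21, 0.18 and 0.18. Rrp12 and Ubtf against P-Rspo3 were 0.12, 0.096 and 0.11, and 0.18, 0.15 and 0.15, under the same 3. In P-Rspo3 against WT, Bop1 was -0.00094 with DESeq2 size factors, -0.00099 with DESeq2, -0.017 with an FPKM filter of 1, -0.0029 with 3 groups in 1 fit and -0.046 with LIPO and NAIVE_F placed by genotype field. Gar1 was 0.0017 and 0.0018 with limma, 0.016 by genotype field and 0.0073 with flox lines only, and Pes1 -0.0047 with the FPKM filter. Rrp1b was 0.00072 on total counts, 0.22 and 0.23 with limma and 0.00085 with flox lines only, and Rrp9 0.10, 0.11 and 0.0077 with limma and flox lines only. Leaving out each library in turn, the log2 fold change in Apc against WT ranged for Bop1 from -0.15 to 0.0035, Rrp12 from -0.061 to 0.13 and for Ubtf from -0.014 to 0.11. In P-Rspo3 against WT it ranged for Bop1 from -0.070 to 0.061, Fbl from -0.093 to 0.11, Gar1 from -0.18 to 0.023, Ncl from -0.030 to 0.16, Nhp2 from -0.027 to 0.14, Nop2 from -0.029 to 0.092, Npm1 from -0.024 to 0.16. There it also ranged for Pes1 from -0.061 to 0.052, Polr1b from -0.049 to 0.10, Polr1c from -0.12 to 0.025, Rrp1b from -0.090 to 0.067, Rrp9 from -0.11 to 0.046, Rrs1 from -0.047 to 0.092 and for Wdr12 from -0.019 to 0.18. In Apc against P-Rspo3 it ranged for Bop1 from -0.14 to 0.016, Bysl from -0.068 to 0.10, Noc3l from -0.042 to 0.087 and for Utp18 from -0.022 to 0.093. Apart from what the scaling itself does, the cause was not tested.

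The Apc and WT libraries share line numbers. Correlations of deviations between libraries of the same number were 0.253, 0.176, 0.119 and 0.0729 (median 0.148), beside a median of -0.041 and a range of -0.225 to 0.163 between numbers. Apc 1, 2 and 5 correlated best with their own number and Apc 6 with WT 5, so the data hint at a pairing without every pair showing it. The fit with the line as a replicate block also left out the naive library. In it 32 factors rose (median 0.45), gaining Mrto4, Noc3l and Rrp9 and losing Polr1c (edgeR adjusted p = 0.0971). Without the naive library and without the block it was also 32, so these changes cannot be assigned to the block alone.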

Other observations

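Genes of a list on p53 and nucleolar stress also differed. Of 10 genes tested in Apc against WT 9 rose and 1 fell on TMM scaling (edgeR), with a median log2 fold change of 1.03, beside 30.0% of all genes tested that rose and 29.0% that fell. Cdkn2a, which encodes ARF, an activator of p53, and the cell cycle inhibitor p16 and is not itself a classic p53 target, averaged 0.116 CPM in WT and 11.8 CPM in Apc (6.66 ± 0.55). Zmat3 and Ccng1, p53 target genes, rose by 1.86 ± 0.15 and 1.43 ± 0.12. Cdkn1a, a classic p53 target that encodes the cell cycle inhibitor p21, was the gene that fell, from 288 CPM in WT to 179.9 CPM in Apc (-0.70 ± 0.21, adjusted p = 0.0146), and it is named here after its values were seen. None of the list passed the test in P-Rspo3 against WT.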
